A study of Oryza sativa with 6 samples.

Results

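The assembled transcripts described here are those that carry class code j in the deposited transcript table, the code given to a multi-exon transcript that shares at least 1 splice junction with an annotated transcript but does not match its whole chain of introns. They are called unannotated splice isoforms below. There were 12378 of them among 57680 transcripts in all (21.5%), beside 35848 transcripts that matched an annotated one (class code =), and no expression value was used to choose them. Total RNA had been taken from leaves of the rice line CA21 at the seedling stage, in 6 libraries. GLY1, GLY2 and GLY3 came from CA21 plants sprayed with glyphosate at 2 mg per ml, and CK1, CK2 and CK3 from CA21 plants that were not sprayed. CA21 is a non-transgenic glyphosate-tolerant line obtained by irradiation and chemical mutagenesis followed by crossing and backcrossing, so both groups carry the mutagenized background and no sensitive line was sequenced. The level of a transcript is given in FPKM, the fragments assigned to it divided by its length and by the number mapped in that library. The share of an isoform is its FPKM as a percentage of the summed FPKM of all transcripts with the same gene_id, the locus that the assembler built from overlapping transcripts.

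Most plant genes with introns can be spliced in more than 1 way. Retention of an intron is the commonest form in plants, and other forms use a shifted 5′ or 3′ splice site or leave out an exon. The products may encode another protein, or carry an early stop codon and be degraded, and the relative use of isoforms is known to move with light, temperature, the circadian clock and stress. Glyphosate blocks 5-enolpyruvylshikimate-3-phosphate synthase, an enzyme of the shikimate pathway that leads to the aromatic amino acids. The comparison of GLY with CK asks which unannotated isoforms differ in level after spraying, and which take a different share of the output of their own gene.

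The mapped depth of the libraries, taken as coverage over FPKM, was between 3.84 and 4.40 Gb in GLY and between 3.43 and 3.80 Gb in CK. Genes fixed as leaf markers, among them those of the small subunit of Rubisco and of chlorophyll a/b-binding proteins, were at 157 FPKM or more in every library, except LOC_Os09g17740, which was at 5.23 FPKM in GLY3 and between 8403 and 11263 FPKM in the other libraries. The root marker was not listed in any library, and the endosperm marker was at most 0.872 FPKM. In bulk leaf tissue, fewer cells of a type and less RNA per cell cannot be told apart. Nothing in the labels says that the libraries of a group came from separate plants, so the p-values measure the spread between these libraries.

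The unannotated isoforms were spread over 7251 gene_ids, and 7291 annotated gene names were attached to them. A single such isoform was found in 4419 gene_ids, 2 in 1686 and 3 or more in 1146. The largest number, 20, belonged to LOC_Os01g60040, annotated as a HEAT repeat family protein. Per 100 annotated transcripts, the number of unannotated isoforms ranged from 27.6 on chromosome 11 to 37.6 on chromosome 1. In 299 of the gene_ids the assembler had joined transcripts of 2 or more annotated genes, and 163 held no annotated transcript in the table.

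These isoforms had a median of 7 exons (the middle 50% between 4 and 11) and a median length of 2507.5 bases. The 11923 annotated transcripts of the same gene_ids also had a median of 7 exons, but a median length of 1970 bases. Of the 12075 isoforms with an annotated transcript in their gene_id, 8513 (70.5%) were longer than every annotated one, with a median difference of 303 bases. In the direction of transcription, 5092 (42.2%) began upstream of the annotated start, 7592 (62.9%) ended beyond the annotated end, and 5790 reached at least 100 bases past the end. In exon number, 3393 (28.1%) equalled an annotated transcript, 2521 (20.9%) had more exons than every annotated one, and 6161 (51.0%) had another number. The span of 313 isoforms (2.53%) covered 2 or more whole annotated genes on the same strand. The positions of single exons were not used here, so an isoform cannot be assigned to intron retention, exon skipping or a shifted splice site.

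Most unannotated isoforms, taken singly, were minor products of their gene. Their median level over the 6 libraries was 1.09 FPKM, against 1.24 FPKM for the annotated transcripts of the same gene_ids. Among the 11238 isoforms whose gene_id summed to at least 1 FPKM in every library, the median share was 13.7% (the middle 50% between 7.33% and 27.9%). A mean share under 10% was found for 4121 isoforms (36.7%), and a share between 10% and 50% for 5619 (50.0%). At the other end, 1003 (8.93%) had between 50% and 90%, and 495 (4.40%) had 90% or more. Summed per gene_id, the unannotated isoforms made up over 50% of the FPKM in 2138 of 6294 gene_ids (34.0%). The shares of single annotated transcripts were not summarized, so a low share is not shown to be particular to unannotated isoforms.

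**Figure D1:**
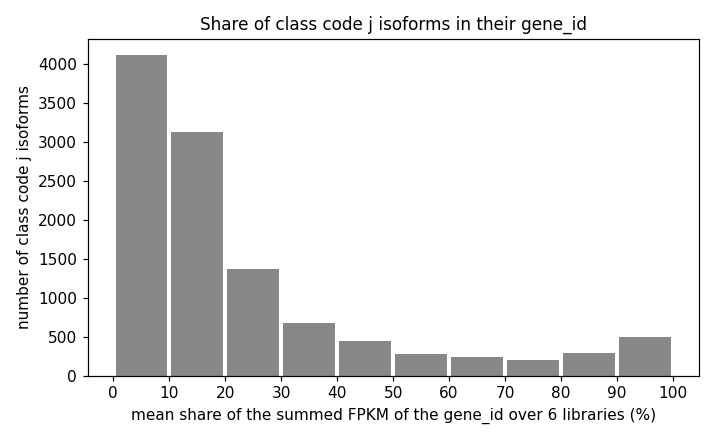
Mean share over the 6 libraries of the 11238 unannotated isoforms (class code j) whose gene_id summed to at least 1 FPKM in every library. The x axis gives the share in percent in bins of 10 points and the y axis the number of isoforms. The first bin holds 4121 isoforms, the counts fall to 197 between 70% and 80%, and the last bin holds 495.

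The share of an isoform varied widely between libraries of the same group. The difference between the highest and the lowest of 3 libraries had a median of 12.1 points in GLY and 12.8 points in CK. It was at least 20 points for 3652 isoforms in GLY (32.6%) and 3962 in CK (35.4%) of the 11190 tested, and at least 50 points for 848 and 1105 of them. MSTRG.11505.2, an isoform of the catalase gene LOC_Os03g03910, which breaks down hydrogen peroxide, shows this at high level. Its share was 42.4%, 12.6% and 52.1% in GLY1, GLY2 and GLY3, and 47.9%, 14.7% and 13.0% in CK1, CK2 and CK3, while the gene summed to between 1177 and 1437 FPKM in GLY and between 1152 and 1209.8 FPKM in CK. A high level in 5 libraries with 0 in the sixth was also seen. Of 767 isoforms with at least 5 FPKM in 5 libraries, 8 (1.04%) were listed at 0 in the remaining one, and in 6 of these 8 the gene summed to between 0.5 and 2 times its mean in the other libraries. The proportion was 24 of 2109 (1.14%) for annotated transcripts of the same gene_ids.

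More unannotated isoforms were detected in every GLY library than in any CK library. Above 0 FPKM were 11000, 11043 and 11069 of them in GLY1, GLY2 and GLY3, and 10506, 10538 and 10438 in CK1, CK2 and CK3, a difference of 543 between the means (11037 ± 34.8 in GLY and 10494 ± 51.1 in CK, SD, n = 3 each). The groups did not overlap (p = 0.1 in a two-sided exact permutation test, which with 3 libraries in each group cannot give less). Annotated transcripts moved with it, at 28837 ± 91.1 detected in GLY and 26989 ± 333 in CK (SD, n = 3 each). Mapped depth, taken as coverage over FPKM, was also higher in GLY, from 3.84 Gb up, against at most 3.80 Gb in CK. The valid reads reported by the study went the other way, with fewer in every GLY library than in any CK library. The part of mapped depth or read number in the number detected was not tested. At 1 FPKM or more, 6795 ± 204 isoforms were counted in GLY and 5683 ± 164 in CK (SD, n = 3 each, exact permutation test, p = 0.1). In all 6 libraries 8348 isoforms (67.4%) were above 0. Another 120 were above 0 in all 3 GLY libraries and listed at 0 in all 3 CK libraries, and 48 showed the opposite. The same numbers were not counted over all transcripts, so this imbalance cannot be told from a general one. An exact 0 here can be a failed estimate as well as absence.

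As a part of all FPKM, the unannotated isoforms did not differ between the groups beyond the spread. They took 11.9%, 12.4% and 12.8% of the summed FPKM in GLY1, GLY2 and GLY3 and 13.3%, 12.5% and 12.3% in CK1, CK2 and CK3, a difference of -0.29 points (exact permutation test, two-sided, p = 0.5). The direction depended on a few isoforms and on CK1, without which the difference was 0.00298 points. The 2 most abundant isoforms held 42.4% of the summed FPKM of class code j in GLY and 51.8% in CK. Without the 10 most abundant, the remaining isoforms took 6.18%, 6.79% and 6.66% in GLY and 5.64%, 5.37% and 5.28% in CK, a difference of 1.11 points with no overlap (exact permutation test, p = 0.1). Within the gene_ids that hold them, all unannotated isoforms together took 52.5% in GLY and 55.8% in CK, a difference of -3.29 points (exact permutation test, p = 0.1). This sum includes the most abundant isoforms. The median share of an isoform in its gene_id went the other way, at 12.1% in GLY and 10.6% in CK. That difference was 1.51 points, with no overlap (exact permutation test, p = 0.1).

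**Figure D2:**
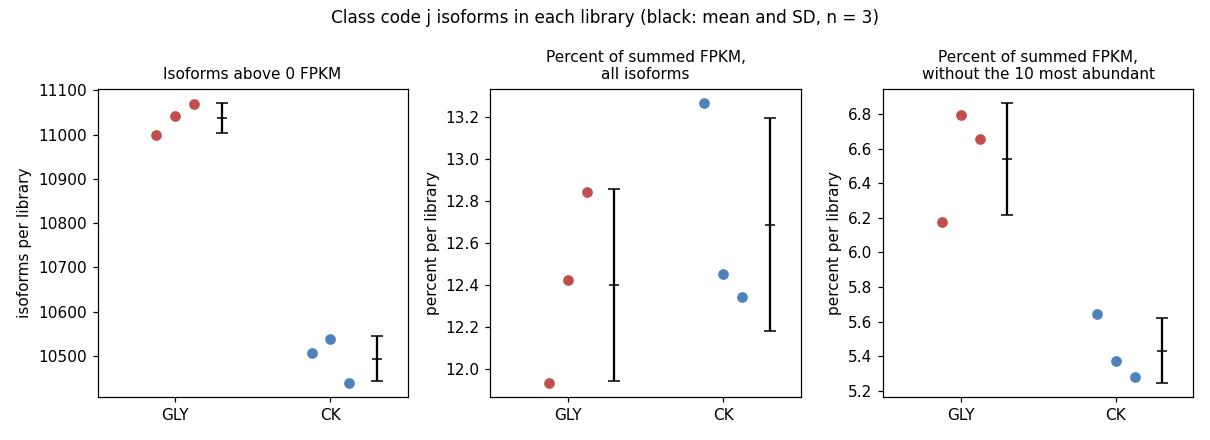
Unannotated isoforms (class code j) in each of 3 GLY and 3 CK libraries. The panels give the number above 0 FPKM, their percent of all summed FPKM, and the same percent without the 10 most abundant, with black bars for the mean and SD. The axes do not start at 0. GLY lies at 11000 to 11069 detected isoforms and CK at 10438 to 10538. The percent of summed FPKM overlaps between groups with all isoforms (11.9% to 12.8% in GLY, 12.3% to 13.3% in CK) and not without the 10 most abundant.

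The most abundant isoform by far was MSTRG.6651.1 of LOC_Os11g47970, on chromosome 11 from 28932987 to 28936236 on the minus strand. The deposited annotation calls this locus an AAA-type ATPase family protein, and it was taken here as the gene of Rubisco activase, the chaperone that frees Rubisco from inhibitory sugar phosphates. MSTRG.6651.1 was at 19487, 18088 and 19327 FPKM in GLY1, GLY2 and GLY3 and at 27621, 28385 and 27143 FPKM in CK1, CK2 and CK3. All GLY values lay below all CK values (log2 fold change -0.55 ± 0.05, SE, limma adjusted p = 0.00574), a difference under the fold threshold used for calls. MSTRG.6651.2 has the same ends, 6 exons in place of 7, and 85 bases less. It was at 4349, 3771 and 3932 FPKM in GLY and at 4726, 5267 and 4826 FPKM in CK. Its share was 18.1%, 17.0% and 16.7% in GLY and 14.5%, 15.5% and 14.9% in CK, higher in each GLY library. The difference of 2.31 ± 1.65 points (SE, limma adjusted p = 0.812) is under the 10 points that a call by share requires. This SE draws on a variance shared over all transcripts, and the SD of the share was 0.713 points in GLY and 0.514 points in CK. Rubisco activase in rice is known to occur as a large and a small form made by alternative splicing of a single transcript, and only 1 annotated transcript of 6 exons was listed for the locus, at 1.29% of its FPKM or less in every library.

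Of the other abundant isoforms, MSTRG.544.3 of LOC_Os01g10400, a gene with no described function, was at 11488, 11867 and 12235 FPKM in GLY and 14795, 12324 and 14063 FPKM in CK, and was not called (limma adjusted p = 0.207). MSTRG.15673.1 of LOC_Os04g36720, a ferric-chelate reductase of the kind that reduces iron for uptake, spans this gene and its neighbour LOC_Os04g36730 and fell in GLY. It was at 98.7, 114 and 173 FPKM in GLY and at 360.4, 266 and 396 FPKM in CK (log2 fold change -1.42 ± 0.25, SE, limma adjusted p = 0.0317), a call lost without any library but GLY3. The annotated transcript LOC_Os04g36720.1 was at 408, 429 and 281 FPKM in GLY and 117, 246 and 0 FPKM in CK, and the 3 transcripts summed to between 456 and 545 FPKM in GLY and between 396 and 512 FPKM in CK. The share of MSTRG.15673.1 did not pass (limma adjusted p = 0.458). MSTRG.14256.3 of LOC_Os03g57220, a hydroxyacid oxidase of the family of photorespiratory glycolate oxidase, was at 233, 246 and 291 FPKM in GLY and at 731, 171 and 220.4 FPKM in CK, with CK1 apart. MSTRG.8115.2 of LOC_Os12g43600, an RNA recognition motif protein, was at 277, 266 and 315 FPKM in GLY and 224, 0 and 237 FPKM in CK. The annotated transcript of that gene held 100% of its FPKM in CK2, the library with the 0.

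In the comparison of levels, 344 of the 10069 unannotated isoforms tested (a mean of at least 0.5 FPKM) were called, that is, differed by 1 or more on the log2 scale with an adjusted p under 0.05 (limma on log2(FPKM + 1), adjusted over all 32646 transcripts tested). This was 3.42%, against 4.9% of all transcripts tested and 3.69% of the annotated transcripts of the same gene_ids. Of the 344, 259 rose in GLY (2.57%, against 3.5% of all transcripts) and 85 fell (0.844%, against 1.4%). The remaining 2309 isoforms were under the level filter. GLY and CK values did not overlap for 2567 isoforms (25.5%, against 30.5% of all transcripts), 1952 of them higher and 615 lower in GLY. The median log2 fold change was 0.22 over the unannotated isoforms, 0.18 over all transcripts and 0.14 over the annotated transcripts of the same gene_ids. With libraries scaled by median-of-ratios factors these medians were 0.06, 0.01 and -0.05, and the called isoforms were 172 higher and 120 lower. Over all transcripts 723 were then called higher and 662 lower, against 1142 and 458 in the main fit. At an unadjusted P under 0.05 and the same fold, 868 isoforms passed (8.62%, against 9.33% of all transcripts). A library-size covariate, whose correlation with the treatment was 0.982, was added in a fit without the eBayes moderation of variances. None of these isoforms was then called, and 512 passed at an unadjusted P under 0.05. Without moderation alone, 230 were called. Without GLY1, GLY2 or GLY3 the number called was 151, 177 or 226, and without CK1, CK2 or CK3 it was 160, 184 or 137. Over all transcripts it was 700, 772 or 1040, and 732, 946 or 667, against 1600 in the main fit.

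The called isoforms came from 315 gene_ids, 26 of which had 2 or more. For 186 of the 344 (54.1%) the summed FPKM of the gene_id differed by at least 1 on the log2 scale in the same direction. This sum includes the isoform itself, so agreement is built in where the isoform holds most of its gene_id. The rest of the gene_id without the isoform was not summed. For 126 the gene sum moved the same way by less than that, and for 32 it moved the opposite way. An annotated transcript of the gene_id was called in the same direction for 51 isoforms, in the opposite direction for 15, and no annotated transcript was called for 279, with 1 isoform counted in both directions. Of the called isoforms, 16 stood at 0 in every GLY library and 31 at 0 in every CK library, numbers that were not counted over all called transcripts. By exon number, 4.53% of the isoforms tested with 2 to 4 exons were called, 3.18% with 5 to 10 and 2.56% with 11 or more, a difference that was not tested. Of the 279 tested isoforms that cover 2 or more annotated genes, 9 rose and 4 fell (4.66% called, against 3.42% of all unannotated isoforms and 4.9% of all transcripts tested).

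**Figure D3:**
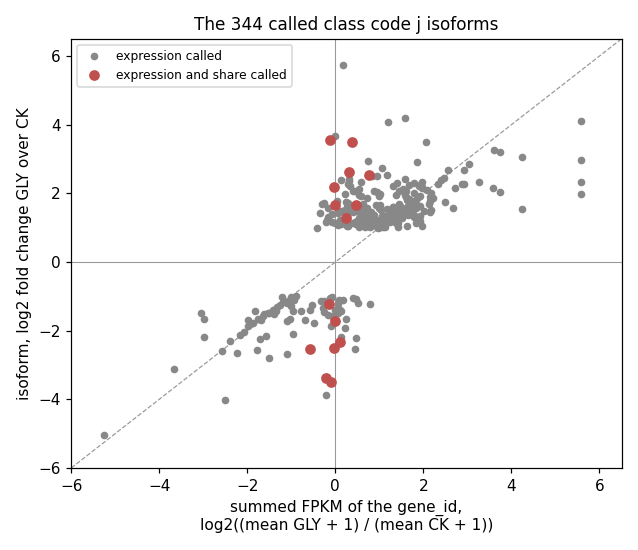
The 344 called unannotated isoforms (class code j). The y axis gives the log2 fold change of the isoform, GLY over CK, and the x axis the log2 ratio of the mean summed FPKM of its gene_id with 1 FPKM added to each mean. The sum includes the isoform itself. The dashed line marks equal change, and red points are the 15 isoforms that were also called by share. The 186 isoforms whose gene sum moved with them by at least 1 lie toward the upper right and lower left, and the red points lie near a gene sum change of 0, between -0.58 and 0.77.

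The largest rise was in MSTRG.11556.4 of LOC_Os03g04590, a ribosomal protein gene, on chromosome 3 from 2144101 to 2145446 on the plus strand. It was at 78.5, 64.8 and 43.7 FPKM in GLY and at 0.177, 0 and 0.286 FPKM in CK (log2 fold change 5.75 ± 0.25, SE, limma adjusted p = 0.000548). Its gene_id summed to 233, 193 and 200.3 FPKM in GLY and 170.4, 191 and 193 FPKM in CK, a far smaller difference than that of the isoform. The share of the isoform did not pass (limma adjusted p = 0.131). Other transcripts of this gene_id moved between libraries of a group: MSTRG.11556.5 was at 0, 0 and 46.7 FPKM in GLY and at 0, 143 and 0 FPKM in CK. MSTRG.16228.3 of LOC_Os04g45290, a glycosyl hydrolase, was at 23.2, 14.0 and 18.5 FPKM in GLY and at 0.121, 0 and 0.0121 FPKM in CK (log2 fold change 4.20 ± 0.22, limma adjusted p = 0.000986). It held 77.1%, 48.5% and 81.3% of its gene_id in GLY and at most 1.38% in CK, a difference that did not pass by share (limma adjusted p = 0.146). The gene itself summed to 22.8 to 30.1 FPKM in GLY and 8.02 to 8.77 FPKM in CK.

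The next 5 isoforms, among the 10 largest rises but not consecutive in size, were grouped by their gene_id sum. This sum, which includes the isoform, was higher in every GLY library than in any CK library. The same held for MSTRG.22242.2, whose gene_id summed to 36.0 to 37.5 FPKM in GLY and 27.0 to 29.8 FPKM in CK. MSTRG.453.1 of LOC_Os01g08890, with no described function, was at 16.1, 28.4 and 9.03 FPKM in GLY and listed at 0 in all CK libraries (limma adjusted p = 0.00567), where its whole gene_id summed to at most 0.0396 FPKM. MSTRG.4292.1 of LOC_Os10g25040, a red chlorophyll catabolite reductase that acts in chlorophyll breakdown, was at 12.2, 13.3 and 13.5 FPKM in GLY and 0.767, 0.794 and 0 FPKM in CK (log2 fold change 3.25 ± 0.27, limma adjusted p = 0.0037). The annotated LOC_Os10g25040.2 rose with it, at 26.9, 24.6 and 43.3 FPKM in GLY and 2.28, 0.711 and 3.39 FPKM in CK, and the share of the isoform was not called. MSTRG.3347.2 of LOC_Os01g67540, an AMP-binding domain protein, was at 10.1, 4.55 and 16.1 FPKM in GLY and 0.335, 0 and 0 FPKM in CK, in a gene_id that summed to 40.5 to 44.9 FPKM in GLY and 2.12 to 2.30 FPKM in CK, and its call was kept without GLY2 or GLY3 and lost without any other library. MSTRG.4890.5 of LOC_Os10g39140, a flavonol synthase/flavanone 3-hydroxylase of flavonoid synthesis, was at 7.65, 16.5 and 23.4 FPKM in GLY and 0.478, 0.321 and 0.312 FPKM in CK, in a gene_id that summed to 39.6 to 88.8 FPKM in GLY and 9.59 to 15.4 FPKM in CK. MSTRG.5972.1 of LOC_Os11g24510, the serine carboxypeptidase homologue OsSCP56, was at 60.9, 63.3 and 46.7 FPKM in GLY and spread over 11.1, 1.59 and 0.228 FPKM in CK (limma adjusted p = 0.0408). The span of this isoform covers 2 whole annotated genes on its strand, so its level is not that of OsSCP56 alone. Its gene_id summed to 60.0 to 63.7 FPKM in GLY and 16.6 to 33.7 FPKM in CK, and its call was lost without any library but CK1.

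In MSTRG.7351.10 and MSTRG.15652.2 the isoform rose while the gene sum overlapped between the groups or lay lower in GLY. MSTRG.7351.10 of LOC_Os12g18729, with no described function, was at 5.61, 15.3 and 18.7 FPKM in GLY and listed at 0 in all CK libraries, while its gene_id summed to 20.1 to 26.5 FPKM in GLY and 21.7 to 26.6 FPKM in CK. The share of MSTRG.7351.10 did not pass (limma adjusted p = 0.353). MSTRG.15652.2 of LOC_Os04g36062, likewise undescribed, was at 21.1, 18.4 and 22.2 FPKM in GLY and 5.09, 0 and 0 FPKM in CK (limma adjusted p = 0.0441), a call lost without any library but CK1. In CK2 and CK3 a near copy, MSTRG.15652.3, with the same number of exons and 45 bases less, was at 29.4 and 24.9 FPKM, and it was at 0.329 FPKM or less in GLY and at 0 in CK1. MSTRG.22242.2 of LOC_Os07g12200 is described with the shares below.

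The largest fall was in MSTRG.4655.1 of LOC_Os10g34790, a terpene synthase, of the family that makes volatile and defence terpenes, on chromosome 10 from 18572423 to 18575856 on the minus strand. It was at 0.093, 0.0561 and 0.0645 FPKM in GLY and at 36.8, 33.5 and 33.3 FPKM in CK (log2 fold change -5.05 ± 0.14, SE, limma adjusted p = 0.000141). The annotated transcript was at 0 in all GLY libraries and 4.27, 7.45 and 4.14 FPKM in CK, so the unannotated isoform was the main product of the gene in CK, at 81.8% to 89.6%, and the whole gene fell. MSTRG.1260.2 of LOC_Os01g27230, a 12-oxophytodienoate reductase of the family that includes a step of jasmonate synthesis, was listed at 0 in all GLY libraries and at 5.18, 4.98 and 5.79 FPKM in CK (limma adjusted p = 0.00156), with 95.7% to 96.9% of the gene in CK. MSTRG.9315.1 of LOC_Os02g21340, an ABC-2 type membrane transporter, was at 0, 0.00451 and 0 FPKM in GLY and 7.63, 7.78 and 7.88 FPKM in CK (log2 fold change -3.13 ± 0.15, limma adjusted p = 0.000776). Its span covers 2 whole annotated genes on its strand, so its level is not that of the transporter gene alone. MSTRG.17558.2 of LOC_Os05g07870, a triose phosphate/phosphate translocator of the plastid envelope, was at 11.2, 10.7 and 10.2 FPKM in GLY and 82.7, 55.5 and 111 FPKM in CK (log2 fold change -2.79 ± 0.26, limma adjusted p = 0.00517), and its annotated transcript fell too, to between 79.3 and 82.0 FPKM in GLY, against 149 to 194 FPKM in CK.

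In the other large falls the gene sum overlapped between the groups or was lower in GLY together with the isoform. MSTRG.400.2 of LOC_Os01g08020, a boron transporter, was at 0.0144, 0.0371 and 0 FPKM in GLY and 14.4, 13.0 and 14.7 FPKM in CK (log2 fold change -3.88 ± 0.15, SE, limma adjusted p = 0.000392), while the gene_id summed to 69.6 to 85.8 FPKM in GLY and 80.8 to 102 FPKM in CK. Its share did not pass (limma adjusted p = 0.0854). MSTRG.11443.1 of LOC_Os03g03130, a ubiquitin-conjugating enzyme, was at 0, 0 and 4.64 FPKM in GLY and 15.7, 17.9 and 18.1 FPKM in CK (limma adjusted p = 0.046), and its share did not pass (limma adjusted p = 0.226). MSTRG.11688.3 of LOC_Os03g06630, a heat stress transcription factor, was at 1.89, 0.468 and 3.67 FPKM in GLY and 23.4, 16.2 and 11.3 FPKM in CK (limma adjusted p = 0.0311), and its gene sum was lower as well, at 64.5 to 72.1 FPKM in GLY and 129 to 182 FPKM in CK. Both calls were lost when any library other than GLY3 was left out. MSTRG.23310.1 of LOC_Os07g42714, with no described function, was at 0.541, 1.57 and 0 FPKM in GLY and 29.1, 32.6 and 16.0 FPKM in CK (limma adjusted p = 0.00755), in a gene_id that summed to 3.62 to 7.49 FPKM in GLY and 28.6 to 37.1 FPKM in CK.

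**Figure D4:**
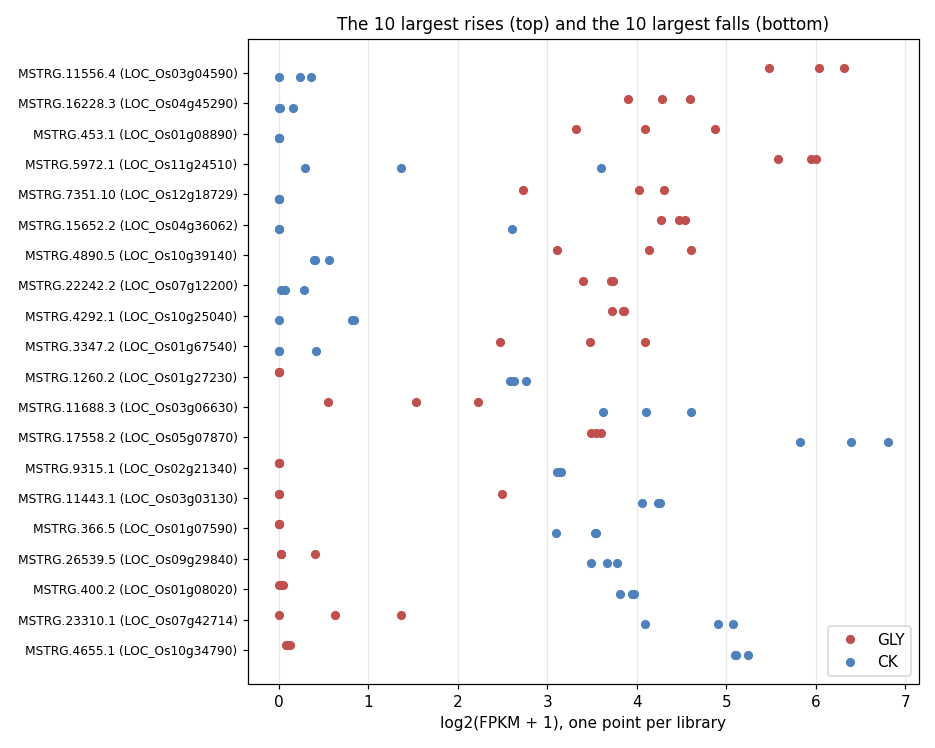
Levels of unannotated isoforms, the 10 that rose most (upper rows) and the 10 that fell most, each with its host gene. The x axis gives log2(FPKM + 1), with 1 point per library, GLY in red above CK in blue. No row has overlapping groups. MSTRG.11556.4 (top) lies at 43.7 to 78.5 FPKM in GLY and at most 0.286 FPKM in CK, and MSTRG.4655.1 (bottom) at most 0.093 FPKM in GLY and 33.3 to 36.8 FPKM in CK.

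Fewer isoforms were called by share than by level. Of 11190 unannotated isoforms tested, 18 (0.161%) were called at a difference of at least 10 points and an adjusted p under 0.05 (limma on the share in percent, adjusted over 27750 transcripts), against 0.22% of all transcripts tested. Of these, 9 rose (0.0804%, against 0.101%) and 9 fell (0.0804%, against 0.119%). At an unadjusted P under 0.05 there were 654 (6.06% of all transcripts passed that rule), 396 higher and 258 lower in GLY. GLY and CK shares did not overlap for 1623 isoforms (14.5%, against 14.1% of all transcripts). The 18 came from 14 gene_ids, 4 of which had a pair of unannotated isoforms that moved in opposite directions, and 15 of the 18 were also called by level. Their differences were between 29.0 and 100.0 points, and for 13 of them the mean share was over 50% in 1 group and under 50% in the other. The sum of the gene_id differed by between -0.58 and 0.77 on the log2 scale, under 1 for all 18. The mean coverage of the 18 isoforms was between 2.79 and 103 reads per base, with a median of 19.7. Without GLY1, GLY2 or GLY3, 10, 22 or 10 isoforms were called, and without CK1, CK2 or CK3, 20, 7 or 10. Over all transcripts these numbers were 45, 67 or 41, and 49, 31 or 44, against 61 in the main fit. With the library-size covariate and no moderation 1 was called, and without moderation alone 7 were. Of the 18, MSTRG.10863.2 and MSTRG.19114.2 passed whichever library was left out.

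MSTRG.19114.2 of LOC_Os05g48670 was the main product of OsFBT10, an F-box and tubby domain protein gene, in GLY and a minor one in CK. F-box proteins choose the targets of a ubiquitin ligase complex. The isoform lies on chromosome 5 from 27892674 to 27896737 on the plus strand, has 5 exons and 1964 bases, and ends 921 bases beyond the annotated transcript of 6 exons and 1323 bases. Its share was 89.5%, 86.0% and 92.1% in GLY and 5.95%, 8.89% and 11.3% in CK, a difference of 80.5 ± 2.61 points (SE, limma adjusted p = 0.0031). The isoform was at 2.80, 3.14 and 2.27 FPKM in GLY and 0.097, 0.187 and 0.239 FPKM in CK, and the annotated transcript at 0.328, 0.511 and 0.195 FPKM in GLY and 1.53, 1.91 and 1.88 FPKM in CK. The gene thus gave mostly the longer form in GLY and the annotated form in CK, at low level in both.

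MSTRG.10863.2 of LOC_Os02g52870, a zinc finger protein of the C3HC4 type that many ubiquitin ligases carry, had the largest difference. Its share was 0% in the 3 GLY libraries and 100% in the 3 CK libraries (limma adjusted p = 0.000222), and the annotated LOC_Os02g52870.1 had the reverse. The isoform was listed at 0 in GLY and at 3.34, 5.35 and 5.87 FPKM in CK, and the annotated transcript was at 3.34, 3.50 and 1.89 FPKM in GLY and listed at 0 in CK. The 2 transcripts are nearly alike. Both have 3 exons, their ends differ by 28 and 10 bases, and their introns sum to 384 bases in MSTRG.10863.2 and 383 bases in LOC_Os02g52870.1, a difference of 1 base. With no spread within either group, the p-value of this gene rests on the variance shared over all transcripts.

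MSTRG.24107.2 and MSTRG.24107.1 of LOC_Os08g08500, annotated as a reductase, changed places at an even gene level. They lie on chromosome 8 on the minus strand and share their 3′ end at 4897416, while their 5′ ends differ by 17 bases. Both have 5 exons, and MSTRG.24107.2 is 294 bases shorter. MSTRG.24107.2 held 72.5%, 79.0% and 77.5% in GLY and 11.4%, 11.6% and 17.6% in CK (difference 62.8 ± 2.98 points, SE, limma adjusted p = 0.00659). MSTRG.24107.1 held 5.13%, 14.7% and 14.2% in GLY and 72.2%, 82.4% and 71.5% in CK (difference -64.0 ± 4.48 points, limma adjusted p = 0.0233). The gene_id summed to 26.4, 26.5 and 27.1 FPKM in GLY and 27.2, 25.7 and 29.3 FPKM in CK. The annotated transcript of this gene was above 0 in CK1 alone, so both of the forms that changed places were unannotated.

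LOC_Os09g39350, with no described function, had the same kind of exchange. MSTRG.27024.4, of 1862 bases, held 99.3%, 77.6% and 86.6% in GLY and 8.31%, 14.9% and 7.42% in CK (limma adjusted p = 0.0331). MSTRG.27024.1, of 540 bases with ends within 88 and 25 bases of the other, held 0.661%, 17.2% and 10.1% in GLY and 91.7%, 79.0% and 92.6% in CK (limma adjusted p = 0.028). Both have 2 exons, and the intron is 490 bases in MSTRG.27024.4 and 1925 bases in MSTRG.27024.1. In LOC_Os07g12200, an ADP-ribosylation factor, a small GTPase of vesicle traffic, MSTRG.22242.2 held 32.3%, 26.5% and 33.4% in GLY and 0.801%, 0.169% and 0.0761% in CK (limma adjusted p = 0.0345). Its partner MSTRG.22242.1, 13 bases longer with introns 11 bases shorter in sum, held 67.4%, 72.5% and 66.4% in GLY and 96.5% to 98.6% in CK. The level of MSTRG.22242.1 was 24.4 to 26.1 FPKM in GLY and 26.6 to 28.7 FPKM in CK, just apart, and that of MSTRG.22242.2 was at 12.1, 9.52 and 12.3 FPKM in GLY and at most 0.216 FPKM in CK (log2 fold change 3.48 ± 0.18, limma adjusted p = 0.000986).

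LOC_Os01g07590, a universal stress protein domain gene, had a short form that was listed at 0 in GLY. MSTRG.366.5, of 5 exons and 911 bases, was listed at 0 in GLY and at 10.6, 7.55 and 10.5 FPKM in CK, with 41.8%, 34.4% and 43.7% of the gene in CK (limma adjusted p = 0.0278). The long form MSTRG.366.1, of 11 exons and 2345 bases, held 94.6%, 98.9% and 99.6% in GLY and 48.2%, 57.4% and 56.3% in CK. A second universal stress protein gene, LOC_Os12g36640, gave MSTRG.7744.1, whose share was 59.9%, 68.8% and 69.1% in GLY and 5.50%, 13.2% and 10.7% in CK (difference 56.1 ± 3.73 points, SE, limma adjusted p = 0.0197). This isoform of 7 exons covers 2 whole annotated genes on its strand. Its gene_id also holds the neighbour LOC_Os12g36630, whose own transcript stayed under 0.03 FPKM in every library.

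The other isoforms that lost share in GLY were MSTRG.4109.1 of LOC_Os10g16640, MSTRG.19783.2 of LOC_Os06g07490, MSTRG.23714.1 of LOC_Os07g49380 and MSTRG.26539.5 of LOC_Os09g29840. MSTRG.19783.2, from a gene with the HIRAN domain found in DNA repair helicases, held 0.211%, 6.01% and 5.05% in GLY and 100%, 98.5% and 86.2% in CK (difference -91.1 ± 4.48 points, SE, limma adjusted p = 0.00659), in a gene of 1.08 to 1.60 FPKM in all. It has 14 exons where the annotated transcript has 15. MSTRG.4109.1, from a gene with no described function, held 2.44%, 0.159% and 0% in GLY and 98.8%, 78.8% and 99.7% in CK. MSTRG.23714.1, from a PWWP domain gene (a domain that binds chromatin), held 35.6%, 39.5% and 45.7% in GLY and 98.2%, 87.6% and 98.5% in CK. Its own level was not called (log2 fold change -0.21 ± 0.27, limma adjusted p = 0.691), while the annotated LOC_Os07g49380.2 was at 2.93, 3.69 and 3.25 FPKM in GLY and at most 0.15 FPKM in CK. MSTRG.26539.5, from a heat shock protein gene, held 0.0496%, 0.939% and 0.0566% in GLY and 35.0%, 33.6% and 27.1% in CK.

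Of the isoforms that gained share, MSTRG.11293.1 of LOC_Os02g58790, annotated as a cell division inhibitor, held 73.4%, 84.7% and 76.1% in GLY and 12.9%, 20.4% and 7.05% in CK (difference 64.6 ± 4.85 points, SE, limma adjusted p = 0.0278). The annotated LOC_Os02g58790.1, which ends 1055 bases earlier, was at 3.16, 0 and 0 FPKM in GLY and 16.9, 16.3 and 16.4 FPKM in CK. MSTRG.10491.1 of LOC_Os02g47440, a syntaxin that acts in membrane fusion, held 63.1%, 65.4% and 69.9% in GLY and 22.2%, 24.8% and 32.2% in CK (limma adjusted p = 0.0448). It began 1472 bases upstream of the annotated LOC_Os02g47440.1 on the minus strand, but 355 bases upstream of the first annotated start of the gene. MSTRG.15652.2, described with the largest rises, held 73.1%, 70.3% and 79.4% in GLY and 16.6%, 0% and 0% in CK. In CK2 and CK3 its near copy MSTRG.15652.3 held 93.7% and 85.3%, and in CK1 another isoform, MSTRG.15652.1, held 64.5%.

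**Figure D5:**
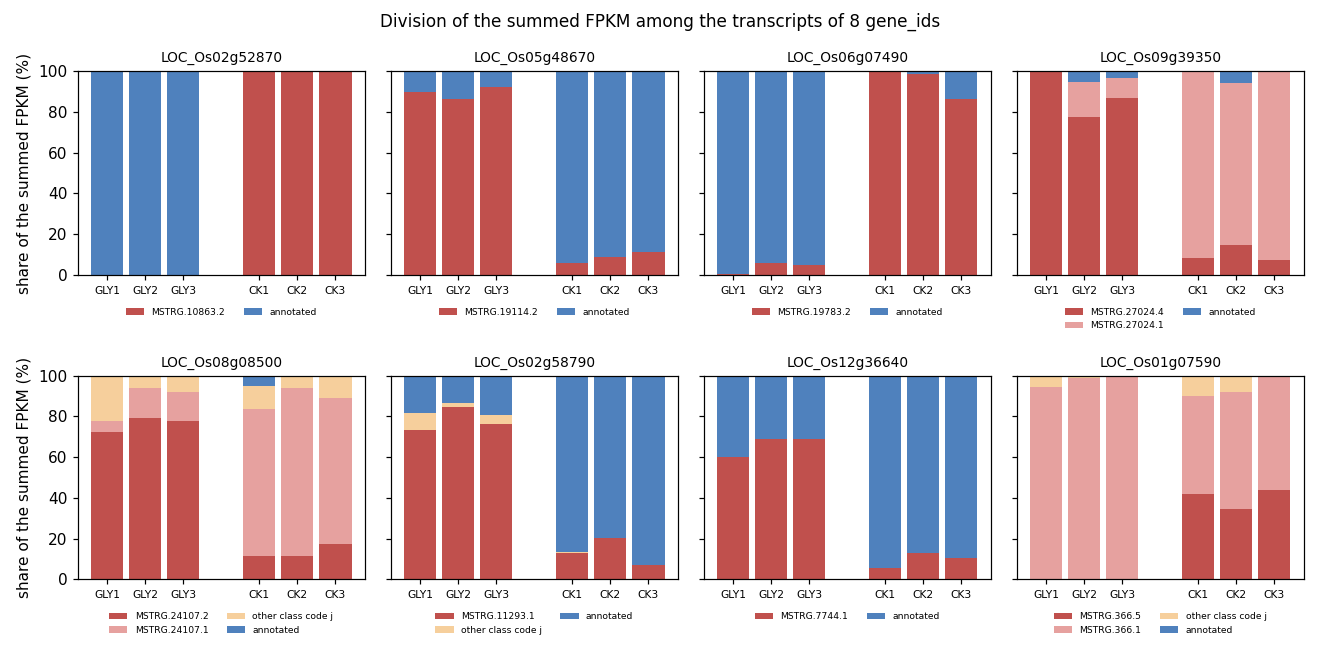
Division of the summed FPKM of 8 gene_ids among their transcripts, in percent, with 1 bar per library (GLY1 to GLY3 left, CK1 to CK3 right). Red shades are the unannotated isoforms called by share, orange the other unannotated isoforms of class code j, and blue the annotated transcripts. In LOC_Os02g52870 the isoform holds 0% in each GLY library and 100% in each CK library, and in LOC_Os08g08500 MSTRG.24107.2 holds 72.5% to 79.0% in GLY and 11.4% to 17.6% in CK.

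Host genes were also grouped by words in their description (the clock genes by locus name), so a list can miss members described in other words, and each list was counted over all its isoforms. Among 203 isoforms of splicing factor genes, 175 were tested, of which 2 rose and 1 fell (1.71%, against 4.9% of all transcripts). MSTRG.1342.2 of LOC_Os01g31810, an RNA recognition motif protein, was at 2.63, 3.09 and 2.50 FPKM in GLY and 0.207, 0.187 and 0.294 FPKM in CK (log2 fold change 1.60 ± 0.17, SE, limma adjusted p = 0.0081), together with its gene, at 4.48 to 7.76 FPKM in GLY and 1.02 to 1.70 FPKM in CK. The other 2 calls were opposite moves within LOC_Os07g33330, also an RNA recognition motif protein. MSTRG.22843.2, with 7 exons, was at 7.04, 4.79 and 6.45 FPKM in GLY and 2.08, 2.93 and 1.32 FPKM in CK. MSTRG.22843.1 has the same ends, 8 exons and 74 bases more, and was at 0.153, 1.05 and 1.07 FPKM in GLY and 3.11, 3.35 and 4.02 FPKM in CK. Their limma adjusted p-values were 0.0496 and 0.0428, both calls were lost with any library left out, and neither passed by share (0.375 and 0.0731).

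Genes of the circadian clock carried many isoforms, 41 from 6 genes. Of these, 37 were tested and 1 rose (2.70%, against 3.42% of all unannotated isoforms and 4.9% of all transcripts tested). Their median share was 3.58%, against 13.6% over all unannotated isoforms with a share tested. LOC_Os08g06110, a MYB family transcription factor to which the deposited annotation gives circadian rhythm, had 10 unannotated isoforms beside 4 annotated transcripts. MSTRG.23996.2 was at 69.4, 54.3 and 29.8 FPKM in GLY and 14.0, 9.62 and 6.35 FPKM in CK (log2 fold change 2.22 ± 0.39, SE, limma adjusted p = 0.0305), a call lost when any library but GLY3 was left out. The gene summed to 367, 406 and 336 FPKM in GLY and 320.4, 261 and 302 FPKM in CK. Its unannotated isoforms together held 78.7%, 54.1% and 72.1% of it in GLY and 93.1%, 96.5% and 91.9% in CK, and the annotated LOC_Os08g06110.5 held 12.4%, 41.4% and 24.7% in GLY and 2.31%, 1.84% and 4.58% in CK. In LOC_Os09g36220, a response regulator receiver domain gene, unannotated isoforms together held 67.9%, 33.4% and 70.3% in GLY and 22.6%, 12.7% and 24.9% in CK, without overlap. In LOC_Os03g17570, of the same description and with 10 unannotated isoforms, the shares overlapped, at 16.9% to 23.0% in GLY and 18.3% to 20.1% in CK. In the GIGANTEA gene LOC_Os01g08700 they held 17.1%, 26.9% and 10.9% in GLY and 40.7%, 14.6% and 51.2% in CK, with overlap. The shares also overlapped in the ELF3 gene LOC_Os06g05060, at 8.96% to 20.3% in GLY and 12.7% to 14.5% in CK. LOC_Os07g49460, with 15 unannotated isoforms and no annotated transcript listed, stood at 100% in every library. These sums were not tested.

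Of the 14 isoforms from genes listed under the aromatic amino acid pathway, 12 were tested and none was called by limma, against 3.42% of all unannotated isoforms. At an unadjusted P under 0.05, 1 was higher and 0 lower. None of 14 was called by share (0 higher and 1 lower unadjusted). The list was drawn by description and also took in LOC_Os05g48750, whose described enzyme belongs to another pathway and whose isoform was under the level filter. It further held LOC_Os06g48620, a 4-amino-4-deoxychorismate synthase with 3 isoforms tested, and LOC_Os09g19734, an isochorismate synthase with 2 tested. These enzymes lead from chorismate to other products, so the counts are not those of the aromatic amino acid pathway alone. In LOC_Os01g01302, a shikimate kinase, the single unannotated isoform held 50.1%, 41.1% and 6.61% in GLY and 88.4%, 92.8% and 92.8% in CK, lower in each GLY library. In LOC_Os03g14990, a chorismate synthase of the last step before chorismate, it held 78.9%, 86.2% and 88.5% in GLY and 24.2%, 66.9% and 94.3% in CK, with overlap. LOC_Os12g34874, the bifunctional 3-dehydroquinate dehydratase/shikimate dehydrogenase, summed to 13.9 to 15.9 FPKM in GLY and 7.91 to 8.94 FPKM in CK, of which its unannotated isoform held 5.36% to 15.8% in GLY and 0.973% to 3.38% in CK. These 3 genes were chosen after their values were seen.

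Of 70 isoforms tested from detoxification genes (cytochromes P450, glutathione S-transferases and UDP-glycosyl transferases), 8 rose and none fell (11.4% called, against 3.42% of all unannotated isoforms and 4.9% of all transcripts tested), with 11 higher and 0 lower at an unadjusted P under 0.05, and all 8 belonged to cytochromes P450, enzymes that oxidize many plant metabolites and foreign compounds. MSTRG.14130.1 of LOC_Os03g55260 was at 6.25, 2.70 and 5.88 FPKM in GLY and listed at 0 in CK (limma adjusted p = 0.0108). MSTRG.14674.1 of LOC_Os03g63310, a cytochrome P450 71E1, was at 2.84, 4.17 and 6.89 FPKM in GLY and 0.0997, 0 and 0.249 FPKM in CK (log2 fold change 2.28 ± 0.30, SE, limma adjusted p = 0.0145), a call kept without GLY1 or GLY3 and lost without any other library, and its gene summed to 10.7 to 31.3 FPKM in GLY and 1.86 to 2.77 FPKM in CK. None of the 70 detoxification isoforms tested by share was called, with 3 higher and 3 lower at an unadjusted P under 0.05. Transporter genes had 16 rising and 4 falling of 326 tested (6.14%).

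Of the protein kinases, 11 rose and 1 fell of 418 tested (2.87%, against 3.42% of all unannotated isoforms). The wording of the list left out MSTRG.466.1 and MSTRG.466.2 of LOC_Os01g09200, an AGC kinase, which also rose. The fall was in MSTRG.24186.2 of LOC_Os08g10300, an SHR5-receptor-like kinase of 24 exons, at 0.307, 0.366 and 0.776 FPKM in GLY and 5.19, 6.53 and 4.63 FPKM in CK (log2 fold change -2.12 ± 0.21, SE, limma adjusted p = 0.00645). MSTRG.2896.1 of LOC_Os01g60910, a calcium/calmodulin dependent type kinase, was at 3.40, 4.32 and 4.69 FPKM in GLY and 1.15, 0 and 0 FPKM in CK, a call lost without any library but CK1. Transcription factor genes had 6 rising and 5 falling of 331 (3.32%), and ubiquitin and proteasome genes 9 rising and 4 falling of 331 (3.93%). Among the ubiquitin genes was MSTRG.15157.1 of LOC_Os04g21130, an F-box protein, at 9.02, 8.37 and 2.04 FPKM in GLY and 0, 0 and 0.0665 FPKM in CK (log2 fold change 2.69 ± 0.48, limma adjusted p = 0.0312), a call lost without any library but GLY3.

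Heat shock and chaperone genes had 1 rising and 2 falling of 84 tested (3.57%, against 3.42% of all unannotated isoforms). In MSTRG.13115.2 of LOC_Os03g31300, the chaperone clpB 1 that resolves protein aggregates, the level was 7.04, 17.2 and 5.91 FPKM in GLY and 34.8, 36.0 and 36.0 FPKM in CK (log2 fold change -1.86 ± 0.37, SE, limma adjusted p = 0.0424), while the gene summed to 101 to 113 FPKM in GLY and 115 to 117 FPKM in CK. This call was lost without any library but GLY2, and the share of the isoform did not pass (limma adjusted p = 0.186). Ribosomal protein genes had 3 rising and none falling of 96 (3.125%), with 9 higher and 0 lower at an unadjusted P under 0.05. MSTRG.9571.2 of LOC_Os02g30050, of the L29 family, was at 8.77, 15.2 and 11.9 FPKM in GLY and 1.28, 3.44 and 0.0967 FPKM in CK, a call lost without any library but CK2. Pentatricopeptide repeat genes, whose proteins process RNA in organelles, had 2 rising and 1 falling of 66 (4.55%). MSTRG.23965.1 of LOC_Os08g05750 was at 1.95, 2.03 and 1.89 FPKM in GLY and 0.817, 0.183 and 0.162 FPKM in CK, and MSTRG.1204.5 of LOC_Os01g25530 at 0.102, 0.0128 and 0 FPKM in GLY and 1.12, 2.13 and 1.08 FPKM in CK. The call of MSTRG.1204.5 was lost with any library left out, and that of MSTRG.23965.1 with any but CK1.

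The photosynthesis list had 17 isoforms tested, with 1 rising and 1 falling (11.8%, against 3.42% of all unannotated isoforms), both from red chlorophyll catabolite reductases. Its wording left out MSTRG.4516.1 of LOC_Os10g32348, a PsbP gene of photosystem II, which also rose (log2 fold change 1.37, limma adjusted p = 0.0193). Beside MSTRG.4292.1, which rose, MSTRG.4289.1 of LOC_Os10g25020 was at 0.203, 0 and 0.00787 FPKM in GLY and 1.79, 1.87 and 1.91 FPKM in CK (log2 fold change -1.42 ± 0.19, SE, limma adjusted p = 0.0143). Of 39 isoforms from redox genes and 105 from transposon genes, none was called by limma, with 1 higher and 2 lower, and 5 higher and 1 lower, at an unadjusted P under 0.05. Apart from MSTRG.19114.2, MSTRG.10863.2 and MSTRG.26539.5, no isoform of any list was called by share. The median log2 fold change of the lists ran from -0.14 for the aromatic amino acid pathway to 0.31 for detoxification, beside 0.22 over all unannotated isoforms tested.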

How the data were processed

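Ribosomal RNA was depleted, and paired-end reads were cleaned and mapped by the authors to Nipponbare with Bowtie 2 and TopHat2 (genome IRGSP build 5.0 in the study's methods, with MSU locus names in the files). StringTie assembled and Ballgown quantified the transcripts. The authors deposited FPKM per transcript and library, normalized for length and mapped fragments, and the read coverage (signal) per base, not divided by depth. Replicates were not pooled. FPKM of isoforms that share exons are the assembler's division of common reads. Depth came from coverage over FPKM. No read counts were used, so the precision is that of the 3 replicates per group.

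A transcript was fitted where its mean reached 0.5 FPKM, on log2(FPKM + 1) with limma 3.58.1 (eBayes with trend) in R 4.3.3. Fold changes are on this scale, which understates low transcripts. Shares were fitted in gene_ids of 2 or more transcripts with at least 1 FPKM in every library. Tests were two-sided, with Benjamini-Hochberg adjustment. The SEs and limma p-values draw in part on a variance that eBayes shares over transcripts. Single values per library had exact permutation tests.

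The fits were tested on simulated data. Named were the 10 largest rises and falls, by level and by share, the 10 most abundant isoforms, every called isoform of the splicing, clock and aromatic lists, and up to 2 of each other list. The isoforms, lists and rules were chosen with earlier results of these data known. MSTRG.466.1, MSTRG.466.2, MSTRG.4516.1, MSTRG.11556.5, MSTRG.15652.1 and MSTRG.15652.3 were added after their values were seen. Gene descriptions came from the deposited gene table. Small RNA and degradome data were not analysed here. No sequence is shown because no genome was used.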

Additional observations from a re-analysis of the deposited data

How the results depend on the processing

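For the number detected, the difference of 543 was 737 at more than 0.1 FPKM, 1113 at 1 FPKM or more, and 515 to 565 with each library left out. The difference of -0.29 points in summed FPKM was -3.29 within gene_ids that hold such isoforms, 1.11 without the 10 most abundant, and -0.51 to 0.00298 with each library left out, changing direction without CK1. The 344 isoforms called by level were 194 with no filter, 868 at unadjusted P and 137 to 226 with each library left out. They stayed between 230 and 345 with a pseudocount of 0.1, a minimum of 1 FPKM, median-of-ratios scaling or no moderation. The 18 called by share were 11 on an arcsine scale, 33 with any gene sum above 0, 7 without moderation, 654 at unadjusted P and 7 to 22 with each library left out.

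With the library-size covariate of Ballgown, whose correlation with treatment was 0.982, 0 isoforms were called by level (512 at unadjusted P) and 1 by share. These fits also had no moderation, unlike the main fits. The log2 fold change then reversed to -4.40 for MSTRG.5972.1, -3.57 for MSTRG.15652.2, -1.59 for MSTRG.2896.1 and -0.79 for MSTRG.23965.1. Equal replicate numbers did not pair the libraries (correlations of deviations between -0.013 and 0.015). With the replicate number as a block, 11 isoforms were called by level and 0 by share. Of 46 named isoforms called by level, 24 kept the call with every library left out in turn, and of 18 called by share, 2 did. The cause of these differences was not tested.

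A value of 0 cannot be told from a failed estimate. The files hold no exon positions, and isoforms that differ by a few bases are divided by few reads.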
